A study of Mus musculus with 24 samples.

Results

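WT bone marrow-derived macrophages (BMDMs) were set against DRD5 knockout (DRD5-/-) BMDMs after both had been driven to the M2 state in the presence of dopamine (DA). The libraries were chosen by their labels, which had to read M2 macrophages, treatment DA, and genotype wt or DRD5 KO. This gave 3 WT and 3 DRD5-/- libraries, 6 of the 24 in the series. Both groups came from C57BL/6 mice aged 10 weeks, which the methods describe as male, with a knockout made by CRISPR-Cas9. Precursors from tibias and femurs were grown with L929 conditioned medium, then given IL-4 at 10 ng/ml, IL-13 at 10 ng/ml and DA at 20 µM for 12 h. The controls were 3 WT and 3 DRD5-/- libraries of M2 cells from the same kind of mice, given the same cytokines for 12 h without DA. DA-treated M1 cells of both genotypes, 3 libraries each, had LPS at 100 ng/ml and IFN-γ at 50 ng/ml in place of IL-4 and IL-13. The labels do not say whether a replicate is a mouse or a culture, so the tests measure only the spread between these libraries, which may be technical. The labelled tissue is bone, while the growth protocol in the labels names colon.

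DRD5 is a D1-like dopamine receptor that couples to the stimulatory G protein Gs. Gs activates adenylyl cyclase, and the cAMP it makes frees the catalytic subunits of protein kinase A (PKA), which phosphorylate CREB and other targets. IL-4 and IL-13 act through receptors that share the IL-4Rα chain and through STAT6, and they raise genes of the M2 state such as Mrc1 and Chil3.

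The transcript of the receptor itself was near the floor in both genotypes. Drd5 (chr5:38319509-38322523) read 0, 0.03 and 0 FPKM (fragments scaled to transcript length and library size) in the 3 WT libraries with DA and 0, 0 and 0 in the 3 DRD5-/- libraries. Without DA it read 0, 0.06 and 0 in WT and 0, 0 and 0 in DRD5-/- cells. A level this low could not serve as a check of the genotype. Of the 5 dopamine receptor genes 4 were listed and 0 reached 1 FPKM in 3 of the 12 M2 libraries, the level needed for a test. Drd1 was the highest of them, at 0.06, 0 and 0.03 FPKM in WT and 0.19, 0.1 and 0.09 FPKM in DRD5-/- libraries with DA.

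Macrophage transcripts were abundant in all 6 libraries. All 16 macrophage markers, 2 of them called higher and 7 lower in WT, stood at 1 FPKM or more in each, led by the lysozyme gene Lyz2 at a mean of 4753 FPKM in WT and 7166 FPKM in DRD5-/- cells. The log2 difference of Lyz2, −0.59, became −0.18 and was no longer called under quantile normalization. The summed level of the 16 markers ran from 13301 to 13378 FPKM in the WT and from 16622 to 17240 FPKM in the DRD5-/- libraries. The 10 markers of IL-4 stimulation were likewise at 1 FPKM or more in all 6 libraries. Of the 10 markers of LPS and IFN-γ stimulation 6 were under 1 FPKM in all 6 libraries, and the list summed to 4.51 to 5.14 FPKM in WT and 7.82 to 9.01 FPKM in DRD5-/- cells. None of the 10 dendritic cell markers, the 9 listed neutrophil markers or the 7 listed natural killer cell markers reached the level needed for a test, and Ccr7 and Prtn3 were at 0 in all 6 DA-treated libraries.

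Other cell types gave mixed readings. The stromal list summed to 143 to 145 FPKM in WT and 119 to 123 FPKM in DRD5-/- libraries with DA, and to 169 to 172 and 111 to 115 FPKM without it. With DA 5 of its 10 tested genes were called higher and 1 lower in WT, the collagen genes Col1a1 (0.74 log2), Col1a2 (0.72 log2) and Col3a1 (0.51 log2) among the higher. Its most abundant gene was the proteoglycan gene Dcn, at 43.3 and 49.4 FPKM with DA (−0.19 log2, not called). The B cell list summed to 66.1 to 68.4 and 105 to 110 FPKM, nearly all of it from the adaptor gene Blnk (61.7 and 95.9 FPKM). The T cell list summed to 2.8 to 3.51 and 5.86 to 6.4 FPKM, with Cd4 at 1.88 and 4.93 FPKM as its largest part. The 8 osteoclast markers summed to 44.9 to 45.5 FPKM in WT and 71.7 to 75 FPKM in DRD5-/- cells, with 1 of the 6 tested higher and 5 lower in WT. In the erythroid and megakaryocyte list only Pf4 was tested. In bulk RNA, fewer cells of a type and less RNA per cell cannot be told apart, and the part of these marker differences in the results was not tested.

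Across the transcriptome the WT libraries with DA stood apart from every other M2 library. The distance between a WT and a DRD5-/- library with DA, over all tested genes on the log2(FPKM + 1) scale, had a median of 58.1 (57.5 to 58.4 over 9 pairs). Within the WT group it was 12.8 and within the DRD5-/- group 13.9. DA-treated DRD5-/- libraries lay 19.5 from untreated DRD5-/- libraries and 22.8 from untreated WT libraries. DA-treated WT libraries lay 55.5 from untreated WT libraries. Of 10735 tested genes, 6676 (62.2%) had their 3 DA-treated WT libraries all above (3868) or all below (2808) the other 9 M2 libraries. The same held of the 3 DA-treated DRD5-/- libraries for 1540 genes (14.3%), 742 above and 798 below. For the untreated groups it held for 1156 genes (10.8%) in DRD5-/- and 859 genes (8%) in WT libraries. Shuffled group names would give 0.909%.

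The test was a limma fit on log2(FPKM + 1), with differences coded WT minus DRD5-/- and called at an adjusted p under 0.001 and at least 1.2-fold. Because 1 is added before the logarithm, differences of genes with low FPKM are understated. With DA, 5333 of the 10735 tested genes (49.7%) were called. Of these 3139 (29.2% of the tested genes) were higher and 2194 (20.4%) lower in WT. Most of the calls were modest in size: 3069 were under 1.5-fold, 741 were at least 2-fold (443 higher, 298 lower) and 63 at least 4-fold (43 higher, 20 lower). The median difference over all tested genes was 0.055 log2, with 5th and 95th percentiles of −0.78 and 0.94. The share called rose with the level, from 37.2% of the 1799 genes under 3 FPKM to 62.9% of the 734 genes over 100 FPKM, so a count for a list of abundant genes has a higher background. Counts of gene lists are read against the 29.2% higher and 20.4% lower over all tested genes. The direction of that split depended on scaling: it was 2784 higher and 2498 lower under median-of-ratios scaling and 2564 and 2664 under quantile normalization.

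**Figure D1:**
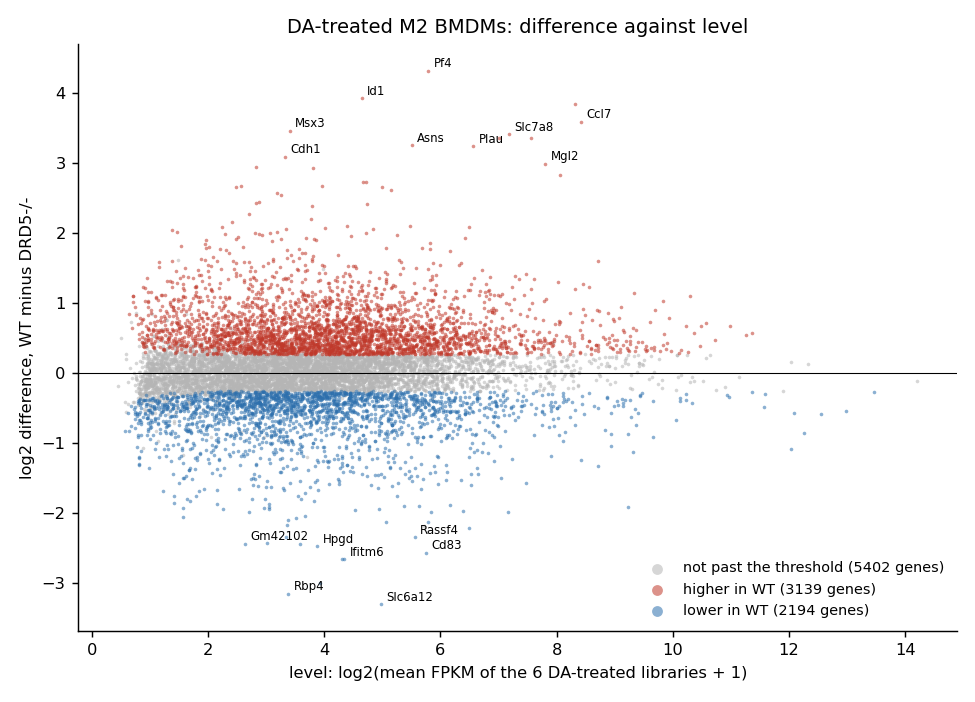
Log2 difference (WT minus DRD5-/-, both with DA, on log2(FPKM + 1)) against the log2 mean FPKM of the 6 libraries, 1 point a gene; red marks the 3139 genes called higher in WT, blue the 2194 called lower and grey the rest. Pf4 and Id1 lie highest and Slc6a12 and Rbp4 lowest.

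Without DA the genotypes differed far less. In the same fit 592 genes (5.51%) were called, 445 higher and 147 lower in WT (336 and 225 under median-of-ratios scaling, 339 and 189 under quantile normalization), and 36 reached 2-fold. The change of the difference with DA, that is the difference with DA minus that without, was called for 4636 genes (43.2%), 2448 upward and 2188 downward. Under quantile normalization the split turned to 2167 upward and 2347 downward. This change uses the same libraries as both differences, so the values are given side by side.

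The most abundant transcripts took a smaller part of the WT libraries. The top 10 genes made up 12.5 to 12.7% of the summed FPKM in WT and 16.2 to 16.4% in DRD5-/- libraries with DA. Without DA the order was the same, at 14.2 to 14.3% and 16.3 to 16.4%. With DA, genes at 1 FPKM or more numbered 10380 to 10414 in WT and 10414 to 10425 in DRD5-/- libraries. The ferritin chains Fth1 and Ftl1, the iron storage proteins, were among the highest, at 18147 and 10179 FPKM in WT and 19744 and 12277 FPKM in DRD5-/- cells. Their log2 differences were −0.12 for Fth1, which did not pass the fold threshold, and −0.27 for Ftl1, which did but became −0.26 and was not called without replicate 3 of either group. Both have pseudogenes, so the assignment of their reads is uncertain.

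Genes of the M2 state differed in both directions. Mrc1, the mannose receptor, read 541, 539.6 and 532 FPKM in the 3 WT libraries and 295, 284 and 287 FPKM in the 3 DRD5-/- libraries with DA. The groups did not overlap, and each replicate was close to its group mean (537 with SD 4.91, 289 with SD 5.41). Its log2 difference was 0.89 (SE 0.0234, limma adjusted p = 2.38e-13), and a smaller one of 0.30 was called without DA. The C-type lectin gene Mgl2 went from 50.9, 47.9 and 47.9 FPKM in DRD5-/- libraries to 391, 405 and 389 FPKM in WT, a log2 difference of 2.99 with DA beside 0.69 without. Its relative Clec10a differed by 0.62 log2 with DA, with means of 61.5 and 39.6 FPKM. Without DA its difference was 0.88 log2, also called, with means of 67.3 and 36 FPKM. Cdh1, which encodes E-cadherin, an adhesion molecule that IL-4 raises in macrophages, was at 17, 16.8 and 17.2 FPKM in WT and 0.97, 1.02 and 1.36 FPKM in DRD5-/- libraries. That made a log2 difference of 3.09. The chitinase-like gene Chil3 read 61.7, 60.3 and 61.5 against 46.5, 47.6 and 43.5 FPKM, a difference of 0.41 log2 (limma adjusted p = 1.21e-07). Chil3 and Chil4 have closely similar sequences, so the assignment of their reads is uncertain.

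**Figure D2:**
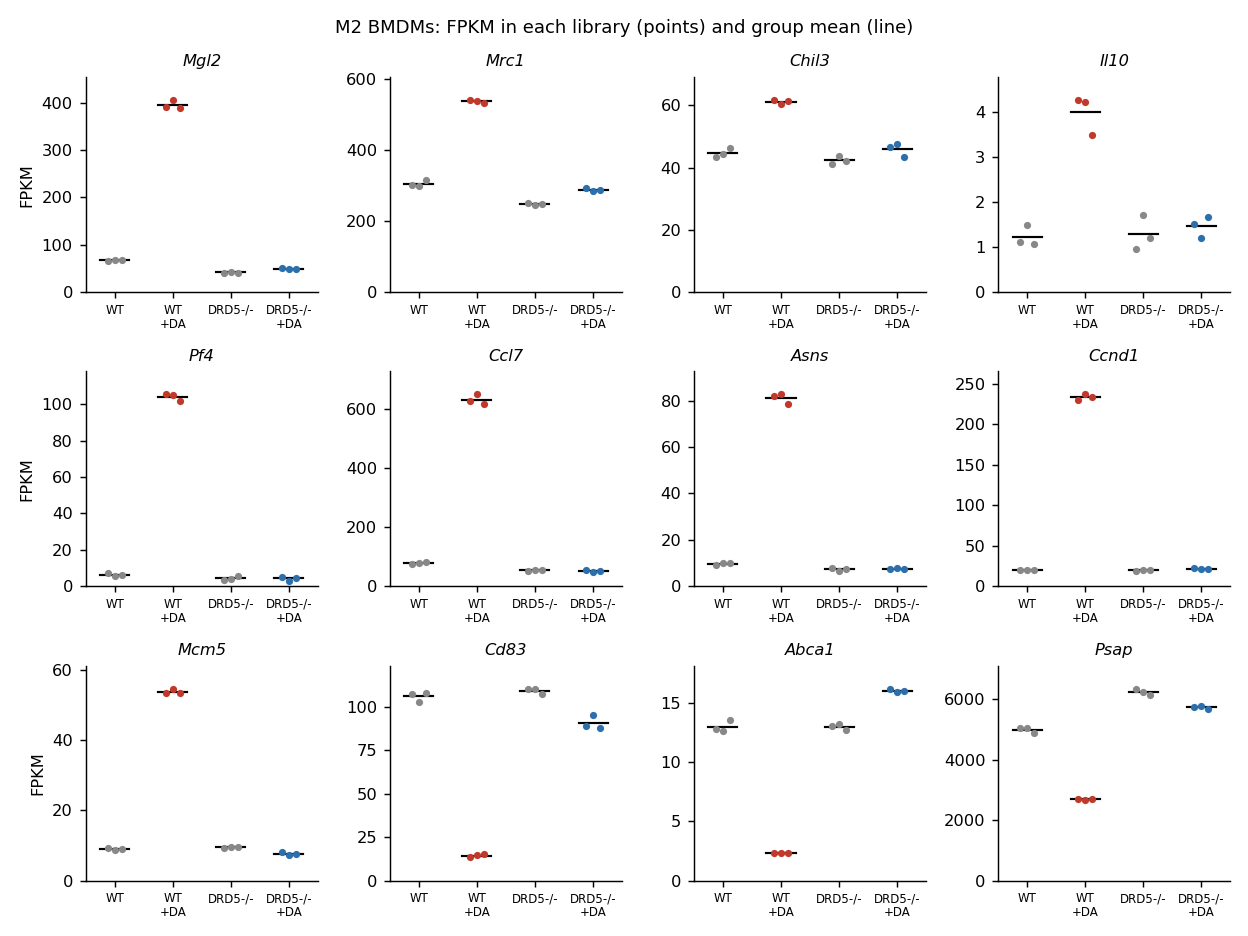
FPKM of 12 genes in each of the 12 M2 libraries (points) with the group mean (line), for WT and DRD5-/- cells without and with DA. The 3 WT libraries with DA lie above the other 9 for Mgl2, Mrc1, Chil3, Il10, Pf4, Ccl7, Asns, Ccnd1 and Mcm5 and below them for Cd83, Abca1 and Psap.

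Signal inhibitors and secreted factors also differed. Socs1, an inhibitor of Janus kinases, read 49.3, 47.9 and 49 FPKM in WT and 34.3, 35.5 and 35 FPKM in DRD5-/- cells, a log2 difference of 0.47 (limma adjusted p = 4.27e-08). Il10, an anti-inflammatory cytokine gene, was low in both groups, at 4.27, 4.24 and 3.49 against 1.51, 1.21 and 1.66 FPKM. The groups did not overlap and the log2 difference was 1.02 (limma adjusted p = 1.9e-06). Other members of the M2 list went the opposite way. Retnla, a secreted M2 product, read 28.4, 29.3 and 30.3 FPKM in WT and 76.9, 86.8 and 79.7 FPKM in DRD5-/- libraries, a log2 difference of −1.44. Pdcd1lg2, which encodes the checkpoint ligand PD-L2, fell from 13.2 FPKM in DRD5-/- cells to 4.52 FPKM in WT (−1.36 log2). Where a gene outside the rule for named genes is singled out, Retnla and Clec10a among them, it is a list member chosen after its values were seen.

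Of the 47 tested genes of alternative activation, 22 were higher in WT and 15 lower, 46.8% and 31.9% beside 29.2% and 20.4% of all tested genes. Their median difference was 0.12 log2, beside 0.055 for all tested genes. Without DA 10 were higher and 0 lower, and the difference changed upward with DA for 20 and downward for 15. The receptor chain and STAT that carry the cytokine signal were not called. Stat6 read 62.4, 64.3 and 64.3 FPKM in WT and 61, 60.6 and 63 FPKM in DRD5-/- libraries, a log2 difference of 0.048 (limma adjusted p = 0.126). Il4ra was at 21.5 and 20 FPKM, with a difference of 0.10 log2. In the list of the IL-4 and IL-13 receptors, Janus kinases, STATs, adaptors and inhibitors, 2 of 30 were higher and 10 lower, with a median of −0.13. The decoy receptor gene Il13ra2 had the largest fall, from 4.62 FPKM in DRD5-/- to 1.4 FPKM in WT cells (−1.23 log2).

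The share of cAMP pathway components called was close to that of all genes, 55.8% beside 49.7%. Of 43 tested genes 9 (20.9%) were higher in WT and 15 (34.9%) lower, with a median of −0.12 log2, and 0 were called in either direction without DA. The difference changed upward with DA for 8 and downward for 12. The regulatory subunits of PKA had 2 of 4 higher. Prkar2a had means of 24.2 and 12.1 FPKM (0.95 log2) and Prkar2b means of 7.21 and 3.19 FPKM (0.97 log2). The scaffold gene Akap1, whose product tethers PKA to mitochondria, differed by 0.95 log2. The phosphodiesterases, which break down cyclic nucleotides, had 2 of 8 higher and 4 lower, and of the 5 coactivators of CREB 4 were lower. Adcy3, an adenylyl cyclase gene, read 3, 3.21 and 3.26 FPKM in WT and 7.88, 8.09 and 7.9 FPKM in DRD5-/- libraries, a log2 difference of −1.11. The catalytic subunits of PKA had 1 of 2 higher and 0 lower. Of the 5 transcription factors of the list 2 were higher and 1 lower, with a median of 0.20 log2. Creb1 was not called, with means of 7.85 and 8.63 FPKM (−0.12 log2). The lower one was Crem, the modulator gene that also gives a repressor (7.2 against 11.3 FPKM, −0.58 log2).

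Genes known to be induced by cAMP included some of the largest rises and some large falls. Of 31 tested genes 13 were higher and 12 lower in WT (12 and 12 under either scaling), together 80.6% beside 49.7% of all tested genes, with a median of 0.056 log2. Id1, an inhibitor of helix-loop-helix factors, read 43.7, 50.1 and 43.9 FPKM in WT and 1.85, 2.05 and 2.38 FPKM in DRD5-/- libraries. The log2 difference was 3.92 (limma adjusted p = 1.32e-12), and in M1 cells with DA it was −0.49 and not called. Its relative Id3 had means of 43.1 and 5.71 FPKM (2.73 log2). In the other direction, the antiproliferative gene Btg2 stood at 2.39 FPKM in WT and 12.1 FPKM in DRD5-/- cells (−1.95 log2). The immediate early gene Nr4a1 was close to the floor, at 1.51 and 1.89 FPKM, with a log2 difference of −0.21.

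To describe the promoters of the genes that moved, the letters TGACGTCA, the full cAMP response element, were searched on both strands from 250 bases before to 50 after each start site in RefSeq (GRCm38.p6). They were found for 3.52% of 2532 genes higher in WT, 3.09% of 1747 lower genes, 4.02% of 4406 tested genes not called, 2.03% of all 27025 genes in the promoter table and 1.79% of all 32851 windows. The shorter letters TGACG, which lie within TGACGTCA, occurred for 38.5%, 34.3%, 36.5%, 23% and 20.8% in the same order. The shares of TGACTCA, the AP-1 element, were 4.42%, 5.32%, 4.18%, 5.95% and 5.2%. Those of TGACNNNGC, the core of the antioxidant response element, were 17.8%, 18.4%, 16.4%, 14% and 12.4%, and those of a STAT6 element (TTC, any 4 bases, GAA) 6.79%, 6.53%, 6.6%, 8.01% and 6.95%. The shares of the full element in higher and lower genes were both under that of the tested genes not called. For TGACG the share of the higher genes was above it and that of the lower genes under it. These differences were not tested. Of the 92 tested genes named for their difference or through a list, 60 had a promoter in the table and 2 held the full element. Both are shown because they were the only ones of these genes that held it. Dio2 is among the genes most lower in WT and Mcm5 among the higher replication genes. The capitals mark the match, which begins 95 bases upstream of the start for Dio2 (chr12:90738989-90739288, minus strand) and 99 bases upstream for Mcm5 (chr8:75109259-75109558, plus strand).
Dio2: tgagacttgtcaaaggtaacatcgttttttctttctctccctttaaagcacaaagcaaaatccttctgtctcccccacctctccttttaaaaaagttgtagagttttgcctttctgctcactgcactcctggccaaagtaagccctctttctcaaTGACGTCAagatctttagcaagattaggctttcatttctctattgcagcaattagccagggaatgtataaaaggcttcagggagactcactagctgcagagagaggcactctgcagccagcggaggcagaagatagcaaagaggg
Mcm5: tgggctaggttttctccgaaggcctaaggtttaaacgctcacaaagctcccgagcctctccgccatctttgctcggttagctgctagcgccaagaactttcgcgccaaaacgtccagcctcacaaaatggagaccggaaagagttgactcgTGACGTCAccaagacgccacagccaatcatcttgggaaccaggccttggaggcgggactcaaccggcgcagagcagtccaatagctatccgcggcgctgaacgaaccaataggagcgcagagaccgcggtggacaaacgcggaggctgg
A match of letters is a description of the window, not a binding site.

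Dio2, which encodes a deiodinase that activates thyroid hormone, read 4.14, 4.36 and 4.61 FPKM in WT and 33.4, 32.3 and 33.2 FPKM in DRD5-/- libraries, a log2 difference of −2.66. Other large falls were in genes of varied function. Slc6a12, a transporter of betaine and GABA, was at 4.05, 4.73 and 5.7 FPKM in WT and 59.4, 53.6 and 55.9 FPKM in DRD5-/- cells, the largest fall on the log2(FPKM + 1) scale (−3.31 log2, limma adjusted p = 4.74e-14). Rbp4, the plasma carrier of retinol, was at 1.14, 1.13 and 1.02 against 17.8, 18.4 and 17.1 FPKM (−3.16 log2). As a ratio of mean FPKM, with no 1 added, its fall was larger than that of Slc6a12, 16.2-fold beside 11.7-fold. Without DA the means of Rbp4 were 12.6 and 22.4 FPKM. Hpgd, which inactivates prostaglandins, fell by 2.48 log2 from a mean of 23.9 to 3.46 FPKM. Mamdc2, Ifitm6, Tcp11l2 and Rassf4 had differences of −3.01, −2.67, −2.45 and −2.35 log2, each with means under 20 FPKM in WT.

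The gene with the largest rise on the log2(FPKM + 1) scale was the chemokine Pf4 (chr5:90772435-90773383), at 105, 105 and 102 FPKM in WT and 5.39, 2.97 and 4.71 FPKM in DRD5-/- libraries. The log2 difference was 4.32 (SE 0.151, limma adjusted p = 4.98e-12), and without DA the means were 6.28 and 4.43 FPKM. Ccl7, a monocyte attractant, read 627, 649.9 and 619 FPKM in WT and 54, 47.6 and 53.2 FPKM in DRD5-/- libraries (3.59 log2). Its neighbour Ccl2 had means of 467 and 65.4 FPKM (2.83 log2), and Ccr1, the receptor of several CC chemokines, means of 25 and 5.2 FPKM (2.07 log2). The receptor Cxcr4, which holds cells in the marrow, went the opposite way, with 29.7, 30.2 and 31.9 FPKM in WT and 145, 148 and 147 FPKM in DRD5-/- libraries (−2.22 log2). Over the list 10 of 24 were higher and 8 lower in WT, with a median of 0.10 log2. Without DA 7 were higher and 5 lower, Ccl7 among the higher (0.52 log2).

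Classical activation and NF-κB genes were more often lower than higher in WT. Of 22 tested classical activation genes 5 were higher and 9 lower, with a median of −0.15 log2. Tnf was higher in WT, at means of 14.5 and 7.93 FPKM (0.80 log2). The neutrophil attractant Cxcl1 was at 0.63, 0.26 and 0.37 FPKM in WT and 3.84, 4.65 and 3.68 FPKM in DRD5-/- libraries (−1.84 log2), and the cytokine gene Il1b at 0.11, 0.11 and 0.11 against 1.77, 1.97 and 1.79 FPKM (−1.36 log2). Both were thus close to the floor in WT. Of 37 genes of the NF-κB pathway 3 were higher and 16 lower, with a median of −0.24 log2. The subunits had 0 of 5 higher and 3 lower, Relb among them at 5.73 and 11.2 FPKM (−0.85 log2).

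Targets of the integrated stress response, among them genes of amino acid synthesis, were mostly higher in WT. Asns, which makes asparagine, read 82, 82.6 and 78.6 FPKM in WT and 7.54, 7.83 and 7.44 FPKM in DRD5-/- libraries with DA. The log2 difference was 3.25 (limma adjusted p = 3.73e-15), and the untreated means were 9.73 and 7.45 FPKM. Of 14 tested targets of the integrated stress response, the program that ATF4 drives, 13 were higher and 1 lower, with a median of 1.80 log2. All 12 aminoacyl-tRNA synthetases were higher, with a median of 1.11 log2. The serine synthesis genes Phgdh (45 and 5.92 FPKM) and Psat1 (41.4 and 9.59 FPKM) were both higher in WT, Phgdh by 2.73 log2. The mitochondrial folate enzyme gene Mthfd2 differed by 2.61 and Chac1, whose product degrades glutathione, by 2.68 log2. Atf4 itself had means of 248 and 144 FPKM (0.78 log2). The targets of the unfolded protein response moved less, with 5 of 13 higher, 2 lower and a median of 0.15 log2. Over the whole list 33 of 54 were higher and 8 lower in WT, with a median of 0.60 log2.

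Of 184 tested Slc genes 50 were higher in WT and 50 lower as deposited, 46 and 57 under median-of-ratios scaling, and 43 and 60 under quantile normalization. The largest rises among them were in amino acid carriers. Slc7a8, a carrier of large neutral amino acids, read 270.5, 256 and 261 FPKM in WT and 23, 24.7 and 23.7 FPKM in DRD5-/- libraries (3.41 log2). Slc7a5, a carrier of the same kind, had means of 23.6 and 2.23 FPKM (2.93 log2). Slc7a1, which brings in arginine, had means of 22.1 and 3.43 FPKM (2.39 log2). The polyamine synthesis enzymes Odc1 (48.1 and 17.5 FPKM) and Srm (86.4 and 24.7 FPKM) were higher in WT, by 1.41 and 1.77 log2. Sat1, which starts polyamine breakdown, was lower, at 88.4 against 265 FPKM (−1.57 log2). Of the 20 tested genes of arginine and polyamine metabolism 11 were higher and 4 lower, with a median of 0.35 log2.

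Replication genes were higher in WT almost without exception. Ccnd1, the D-type cyclin that opens G1, read 230.5, 237 and 234 FPKM in WT and 22.8, 21.4 and 21.4 FPKM in DRD5-/- libraries (3.36 log2, limma adjusted p = 1.68e-17). Mcm5, a subunit of the replicative helicase, read 53.5, 54.6 and 53.3 against 8.09, 7.35 and 7.63 FPKM (2.66 log2). Of 19 replication genes 18 were higher and 0 lower, with a median of 1.64 log2. Uhrf1, which keeps DNA methylation through replication, had means of 26 and 3.22 FPKM (2.68 log2), and the clamp gene Pcna means of 405 and 285 FPKM (0.50 log2). Mitosis genes had 6 of 18 higher, 0 lower and a median of 0.24 log2. Mki67, the proliferation antigen, was not called, at 4.08, 4.18 and 4.11 FPKM in WT and 3.71, 3.8 and 3.85 FPKM in DRD5-/- libraries (0.098 log2, limma adjusted p = 0.0757). Among the 20 G1 regulators 12 were higher and 3 lower. They included both cell cycle drivers and inhibitors: Myc was higher (65.4 against 26.4 FPKM) and so was the inhibitor Cdkn1a (121 against 40.2 FPKM), while the inhibitor Cdkn1c was lower (16.2 against 47.2 FPKM). With DA the 57 tested genes of the list had 36 higher, 3 lower and a median of 0.65 log2. In the untreated cells 1 was higher and 0 lower, and the difference changed upward with DA for 35 and downward for 4.

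Sterol genes split by function. Of 26 sterol synthesis genes 18 were higher in WT and 0 lower, with a median of 0.64 log2. The enzymes Sqle (30.4 and 9.89 FPKM) and Fdps (49.5 and 20.5 FPKM) differed by 1.53 and 1.23 log2. Without DA 7 of the 26 were higher and 0 lower, with a median of 0.21 log2, Sqle (0.52 log2) among the higher. Genes of sterol efflux and lipid uptake were more often lower than higher with DA, with 4 of 29 higher, 17 lower and a median of −0.47 log2. The cholesterol exporter Abca1 read 2.33, 2.36 and 2.33 FPKM in WT and 16.2, 15.9 and 16 FPKM in DRD5-/- libraries (−2.35 log2, limma adjusted p = 2.23e-15). Abcg1, which also exports cholesterol, had means of 29.9 and 92.1 FPKM (−1.59 log2), and Nr1h3, which encodes the liver X receptor α that drives both, means of 9.11 and 21 FPKM (−1.12 log2). The lipoprotein gene Apoe stood at 3482 and 6322 FPKM (−0.86 log2). The fatty acid carrier Fabp4 fell by 1.99 log2 to 56.7 FPKM in WT. The scavenger receptor Msr1 was among the 4 called higher, at 145 FPKM in WT and 33.4 FPKM in DRD5-/- cells (2.09 log2).

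Lysosome genes were lower in WT with few exceptions. Psap, the precursor of the saposins that help degrade sphingolipids, read 2693, 2680.2 and 2683 FPKM in WT and 5731, 5781 and 5665 FPKM in DRD5-/- libraries, a log2 difference of −1.09. Of 36 lysosome genes 1 was higher and 29 lower (2.78% and 80.6% beside 29.2% and 20.4% of all tested genes), with a median of −0.49 log2. The cathepsins, its proteases, had 1 of 12 higher and 11 lower. Ctsb was at 6578 and 9638 FPKM (−0.55 log2) and Ctsc at 24.5 and 69.7 FPKM (−1.47 log2). Only Ctsl was higher, at 965 against 584 FPKM (0.72 log2). Of the hydrolases 9 of 11 were lower and of the membrane proteins 7 of 10, Lamp1 among them (818 and 1301 FPKM). Tfeb, the factor that drives lysosome genes, had means of 24 and 37.2 FPKM (−0.61 log2). Without DA 1 was higher and 3 lower, and the difference changed downward with DA for 27 and upward for 1.

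Antigen presentation genes were also more often lower than higher, with 4 of 27 higher, 11 lower and a median of −0.15 log2. Of 8 class II genes 5 were lower and 0 higher. Ciita, the master regulator of class II, read 0.81, 0.86 and 1.07 FPKM in WT and 5.82, 6.01 and 6.2 FPKM in DRD5-/- libraries (−1.88 log2). Without DA the order of Ciita was reversed, with means of 8.79 FPKM in WT and 5.67 FPKM in DRD5-/- cells (0.56 log2). Cd74, the invariant chain, showed the same order, 1039 and 1366 FPKM with DA and 2001 and 1348 FPKM without. Cd83, a surface molecule of activated presenting cells, was at 13.4, 14.5 and 15.3 against 88.9, 95.3 and 87.8 FPKM with DA (−2.58 log2). Genes whose symbols start with H2- have near-identical relatives, so they are given as a count only: 0 of 21 tested were higher and 10 lower.

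Interferon-induced genes differed mainly without DA. There 26 of 35 were higher in WT and 0 lower, with a median of 0.56 log2, beside 5.51% of all tested genes called. With DA 11 were higher and 6 lower, with a median of −0.062 log2. The change of the difference with DA was downward for 23 and upward for 1. Irf7, which drives type I interferon genes, was at 31.7, 30.5 and 30.3 FPKM in WT and 13, 11.8 and 13.8 FPKM in DRD5-/- libraries without DA (1.2 log2). With DA its values were 29.1, 29.3 and 28.9 and 17.3, 16.9 and 17.3 FPKM (0.73 log2), so the groups were apart in both settings.

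**Figure D3:**
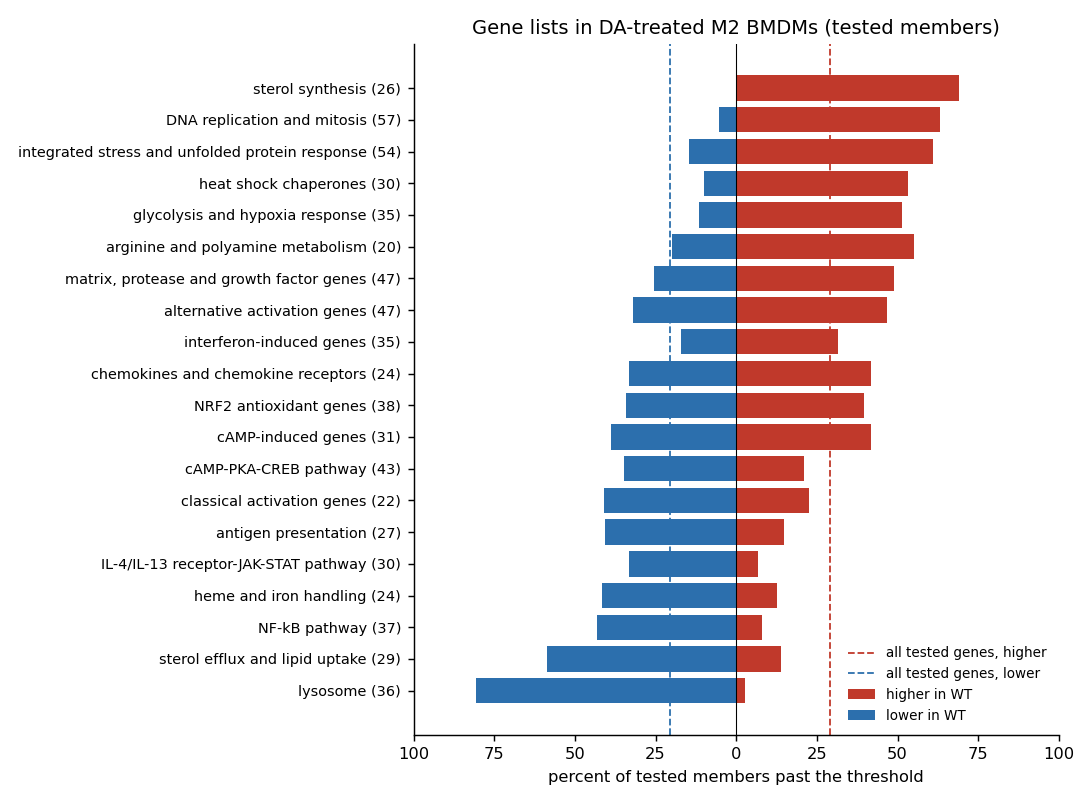
Percent of the tested genes of each list called higher (to the right) or lower (to the left) in WT than in DRD5-/- M2 cells with DA; dashed lines mark the 29.2% and 20.4% of all tested genes. The lysosome list has 80.6% lower and the sterol synthesis list 69.2% higher; the NRF2 list is more often higher as deposited but more often lower under both scalings.

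Matrix and protease genes had 23 of 47 higher and 12 lower, with a median of 0.24 log2. Plau, the urokinase gene, read 168, 170.4 and 171 FPKM in WT and 16.3, 18.6 and 16.5 FPKM in DRD5-/- libraries (3.24 log2), while without DA it was lower in WT, at 16 against 26.7 FPKM (−0.71 log2). Of 5 plasminogen activation genes 4 were higher and 0 lower. The metalloproteinase gene Mmp8 had means of 6.66 and 1.26 FPKM (1.76 log2) and Timp1, whose product inhibits such enzymes, means of 109 and 32 FPKM (1.74 log2). Tgfbi, a secreted adhesion protein gene, was at 344 and 32.7 FPKM (3.35 log2), with 0.92 log2 already without DA. The stromal markers had 5 of 10 higher and 1 lower in WT, and their part in the matrix gene counts was not tested.

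Glycolysis genes were higher in WT for 13 of 20, with 0 lower and a median of 0.51 log2. Gapdh stood at 2495 and 1569 FPKM (0.67 log2) and Ldha, which makes lactate, at 723 and 377 FPKM (0.94 log2). Hypoxia response genes outside glycolysis were mixed, with 5 of 15 higher and 4 lower. Of 30 heat shock chaperone genes 16 were higher and 3 lower, with a median of 0.39 log2. Hspd1, the mitochondrial chaperonin, had means of 141 and 62.3 FPKM (1.17 log2) and the constitutive Hspa8 means of 1471 and 923 FPKM (0.67 log2). The inducible Hspa1b was lower in WT, at 1.61, 1.76 and 1.75 against 4.93, 4.83 and 4.68 FPKM (−1.10 log2). Its copy Hspa1a is nearly identical in sequence, so the assignment of its reads is uncertain.

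Genes that respond to heme, iron and oxidants were split. Of 38 tested NRF2 antioxidant genes 15 were higher and 13 lower, with a median of 0.16 log2. The split turned to 13 higher and 15 lower under median-of-ratios scaling and to 12 and 17 under quantile normalization. Hmox1, the heme oxygenase gene, read 2929, 2869.8 and 2914 FPKM in WT and 1957, 2009 and 2016 FPKM in DRD5-/- libraries with DA (0.54 log2), and 201 and 243 FPKM on average without it. Gclm, the modifier of glutathione synthesis, had means of 55.2 and 24.3 FPKM with DA (1.15 log2) and 10.2 and 10.3 FPKM without. DA-treated cells of both genotypes thus had higher means of Hmox1 and Gclm than untreated cells, a comparison that was not tested here. Of 24 heme and iron genes 3 were higher in WT and 10 lower, with a median of −0.14 log2. Ncoa4, the receptor that delivers ferritin for breakdown, was at 53.2 against 146 FPKM (−1.44 log2). The iron exporter Slc40a1 was at 7.38 against 13.3 FPKM (−0.77 log2).

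Some genes differed between the genotypes to a like extent with and without DA in M2 cells. Tmem267 (chr13:119488086-119610459) read 14.7, 13.1 and 13 FPKM in WT and 2.48, 2.51 and 2.82 FPKM in DRD5-/- libraries with DA, and 18.7, 20.9 and 19.8 and 3.21, 3.46 and 2.71 FPKM without. Its log2 differences were 2.02 and 2.34. Dynlt1b (chr17:6429530-6440500), a dynein light chain gene with close copies, was lower in WT by similar amounts, at 19.7 and 77.5 FPKM with DA and 23.4 and 85.8 FPKM without. The gene models Gm42102 and Gm43828, whose mapping is uncertain, had log2 differences of −2.45 and −2.44 with DA and −2.64 and −2.27 without. In DA-treated M1 cells the differences of these genes did not pass the threshold. They were −0.075 log2 for Tmem267, 0.40 for Dynlt1b, −0.26 for Gm42102 and −0.006 for Gm43828. Tmem267 was near the floor there, at 0.33 and 0.41 FPKM. Genes near Drd5 were called at no higher share than others. Of 98 tested genes within 10 Mb of it on chromosome 5, 25 were higher and 18 lower with DA (43.9%), and 1 and 3 without (4.08%). The shares for all 10701 tested genes with a position were 49.7% and 5.46%.

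**Figure D4:**
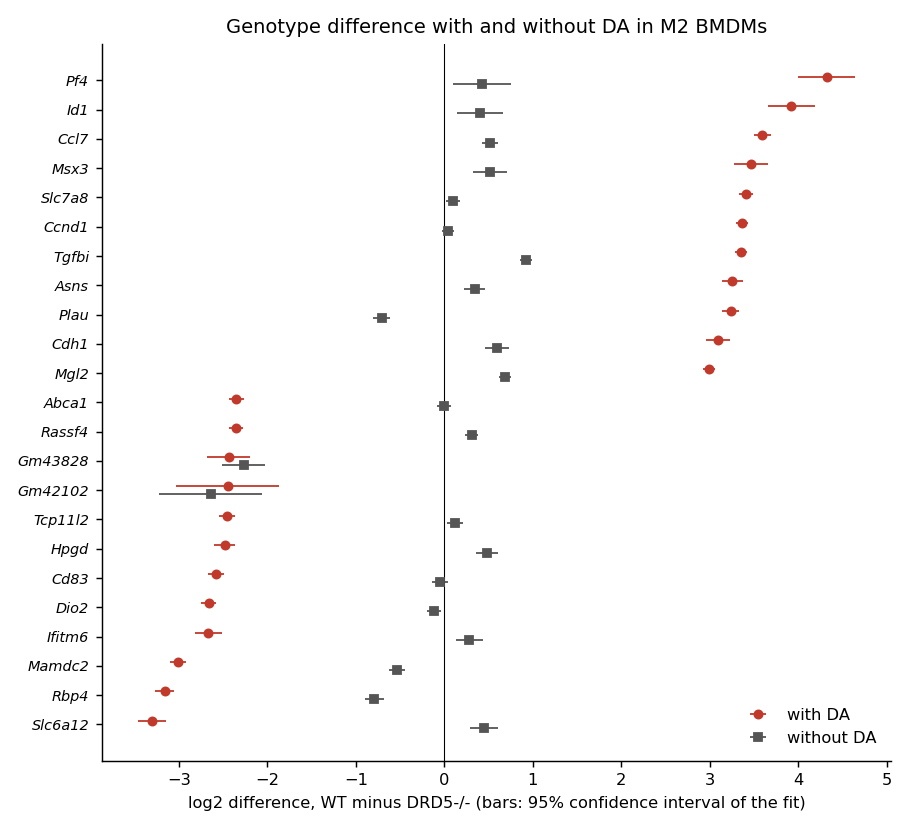
Log2 difference (WT minus DRD5-/-) with and without DA, with confidence intervals of the fit as bars. Shown are 11 genes much higher and 12 much lower in WT than in DRD5-/- cells, both with DA. Without DA the differences of Gm42102 and Gm43828 are −2.64 and −2.27 log2, and all others are under 1 log2 in size.

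The genotype difference with DA was set beside that of M1 cells, which share no library with it. The difference in M2 minus that in M1 was called for 5497 of 11143 genes tested over both stimuli (49.3%), 3422 upward and 2075 downward, with a median of 0.10 log2. The split depended on scaling: it was 2767 upward and 2651 downward under median-of-ratios scaling and 2613 and 2779 under quantile normalization, where the median moved to −0.014 log2. Asns differed by 3.25 log2 in M2 and −0.44 in M1 cells, and the difference between them was 3.69 log2 (limma adjusted p = 6.25e-20). Pf4 was at 64.4 FPKM in WT and 49.2 FPKM in DRD5-/- M1 cells, a log2 difference of 0.39 that was not called, and M2 minus M1 was 3.94 log2. Slc6a12, lower in WT M2 cells, had a difference of 0.35 log2 in M1 cells.

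Groups of genes were read in the same way. The median difference of lysosome genes was −0.49 log2 in M2 and 0.006 in M1 cells, and M2 minus M1 was called downward for 27 of 36 and upward for 0. Integrated stress and unfolded protein response genes had medians of 0.60 and −0.13, heat shock chaperones 0.39 and −0.39, and DNA replication and mitosis genes 0.65 and 0.017. Sterol synthesis genes were closer, at 0.64 and 0.35 log2. Over all tested genes the medians were 0.055 and −0.048 log2.

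**Figure D5:**
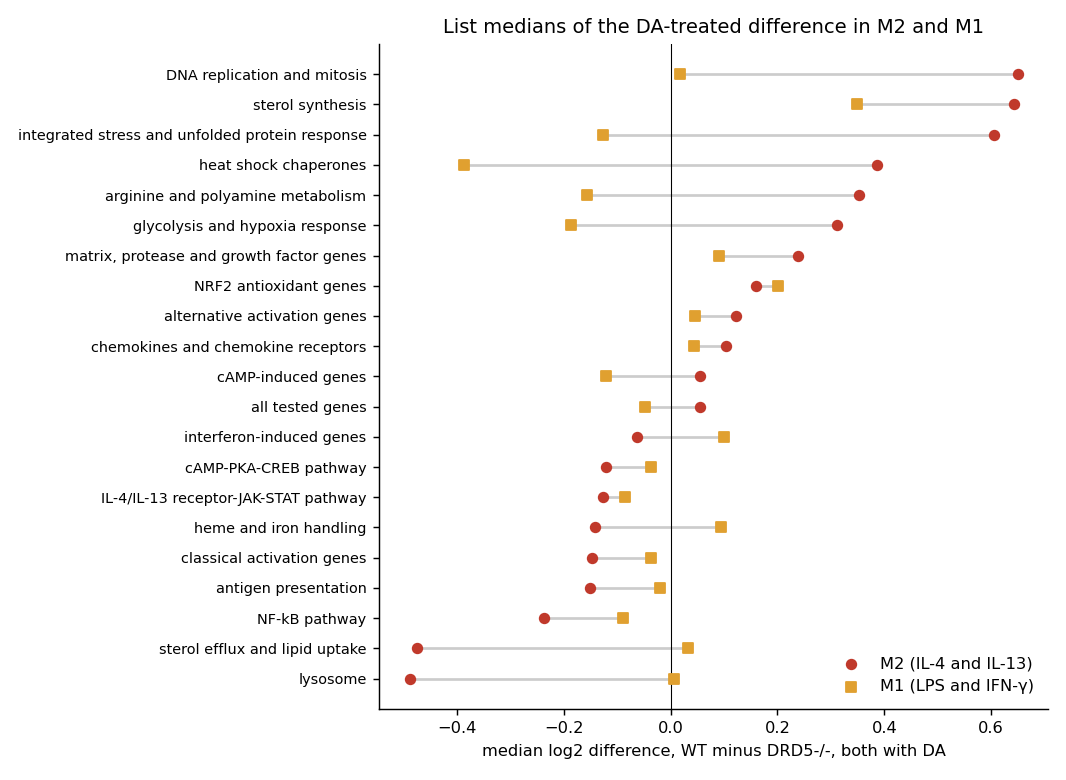
Median log2 difference (WT minus DRD5-/-, both with DA) of each gene list in M2 (circles) and M1 cells (squares). The DNA replication and mitosis list has the highest M2 median (0.65) and the lysosome list the lowest (−0.49); the order of higher and lower calls in the NRF2 list depends on scaling.

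The tests were limma fits on deposited FPKM values with 3 libraries a group, so depth per gene is unknown and genes near 1 FPKM rest on few reads. The direction of modest differences over all genes depended on scaling, with 58.9% of the called genes higher in WT as deposited and 49% after quantile normalization.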

How the data were processed

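The authors deposited 1 table of FPKM values per library, without read counts. Their methods name HISAT2, GRCm38.p5 and the BGISEQ-500, while the submitters' processing notes name Bowtie2 2.2.5 and GRCm38.p6; the values were used as deposited. The M2 libraries list 17786 genes and those of M1 cells 18063, with 17109 in both. Genes with at least 1 FPKM in at least 3 of the 12 M2 libraries were kept (10735), 1 was added and log2 taken. One limma fit with an intensity trend over the 4 M2 groups gave the difference with DA, that without and their change, and a fit over all 24 libraries gave M2 minus M1. p-values were adjusted by Benjamini-Hochberg over all tested genes of a comparison. A call needs an adjusted p under 0.001 and at least 1.2-fold. A self-test on simulated libraries with planted changes was run before the fits. Tools were R 4.3.3, limma 3.58.1, Python 3.11.15, numpy 2.4.6, pandas 2.3.3 and matplotlib 3.10.9.

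The 102 named genes (97 tested) came from a written rule. It took the largest differences between WT and DRD5-/- cells with DA in each direction, and genes chosen for the M2 state and DRD5. It added the leading members of each list, the largest differences without DA, the most abundant genes, and the largest differences between M2 and M1. The 21 lists hold 777 entries, of which 772 were listed and 692 tested. The members and lists were chosen with earlier results of these data known. Positions and promoters are from RefSeq (GRCm38.p6) and matched 10701 and 8685 of the tested genes by gene ID. Alternatives tried were 2 other normalizations (quantile, and median of ratios), a smaller pseudocount (0.1), all genes unfiltered, replicate number as a block, no trend, other thresholds, fits on fewer libraries and leaving out each library of the groups compared. Results of a few genes are not reported. DA effects within a genotype and the genotype difference of untreated M1 cells were not analysed here.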

Additional observations from a re-analysis of the deposited data

Results flagged for a closer look

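The results here were marked because a difference between genotypes differed between settings: with against without DA, or M2 against M1. In all, 4636 genes had a difference that changed with DA and 5497 one that differed between the stimuli. Of the 97 tested named genes these were 83 and 85.

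Called in opposite directions with and without DA were 10 named genes. The log2 change of the difference with DA was 3.94 for Plau and 1.60 for Ccl4, which were higher in WT with DA and lower without. It was −3.76 for Slc6a12, −2.97 for Hpgd, −2.66 for Rassf4 and −2.43 for Ciita. For Hspa1b it was −1.80, for Ctsc −1.76, for Pdcd1lg2 −1.63 and for Gbp2 −1.29.

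Some named genes, Slc6a12, Ctsc and Gbp2 again among them, were called in opposite directions in M2 and M1 cells with DA. Higher in WT M2 and lower in WT M1 cells were amino acid and stress response genes, with M2 minus M1 of 3.69 log2 for Asns, 3.36 for Chac1, 3.33 for Slc7a5, 3.24 for Phgdh and 2.75 for Slc7a1. The same order held for Srm (2.21), Slc16a1 (1.82), Oasl1 (1.05), Socs1 (0.99) and Gnai2 (0.63), though the M2 difference of Gnai2, 0.35 log2, fell to 0.25 and was not called under quantile normalization. Among chaperones it was 1.87 for Hspd1, 1.61 for Hspa9 and 1.24 for Hspa8. The order was reversed for Slc6a12 (−3.66), Dio2 (−3.45), Slc40a1 (−3.19), Fabp4 (−2.82), Ctsc (−2.19), Ncoa4 (−1.84) and Gbp2 (−1.06). Some of the M1 calls rest on levels near the floor. In WT and DRD5-/- M1 cells the means were 0.49 and 0.97 FPKM for Slc7a5 and 0.46 and 1.36 FPKM for Chac1. They were 1.02 and 1.87 FPKM for Phgdh and 0.55 and 1.1 FPKM for Srm, while Asns was at 7.74 and 10.8 FPKM.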

How the results depend on the processing

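No gene was called in opposite directions under any alternative, though the NRF2 list went from 15 higher and 13 lower to 13 and 15 under median-of-ratios scaling. The 5333 genes called with DA were 5200 without the filter, 5435 with a pseudocount of 0.1, 5282 under median-of-ratios scaling, 5228 under quantile normalization, 5279 without the intensity trend and 5042 to 5140 with 1 of the 6 DA-treated M2 libraries left out. Called with the same sign in both were 4978 genes under median-of-ratios scaling and 4746 under quantile normalization. With the replicate number as a block the count was 5264; residuals of libraries with the same number had a mean correlation of −0.016, so no pairing was used. The 592 genes without DA ranged from 475 to 510 with 1 of the 6 untreated libraries left out, those changed with DA from 4296 to 4501 with 1 of the 12 M2 libraries left out, and M2 minus M1 from 5244 to 5407 with 1 of the 12 DA-treated libraries left out.

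At 2-fold the counts were 741 with DA, 36 without, 750 for the change and 1116 for M2 minus M1, because fewer genes pass. At an adjusted p under 0.05 the count without DA was 895. The cause of the changes in the splits of higher and lower genes under the 2 scalings was not tested.

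Of the 97 tested named genes 89 had a value under every setting and kept their direction and their side of the threshold. Fth1, Ftl1 and Ctsb had no value under quantile normalization, which made their values equal in all 12 M2 libraries, so their differences were not tested under it. Bst2 went from 0.30 to 0.25 and 0.15 under median-of-ratios and quantile scaling. Gnai2 (0.35) was 0.25 and Lyz2 (−0.59) was −0.18 under quantile normalization, while Lgals3 (0.13) became 0.52. Prdx1 (−0.23) became −0.28 and −0.36 under these scalings. Ftl1 (−0.27) was −0.26 without replicate 3 of either DA-treated group.

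Limits: FPKM tables hold no counts, so depth could not be used in the fit, and low values given to 2 decimals are too coarse to recover reads. With 3 libraries a group and replicates of unknown kind, the adjusted p-values measure repeatability of these libraries only. The number of mice in a group is not given, so genotype, mouse and culture cannot be told apart.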

Other observations

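Large gene families named by their symbols were counted as well. Of 82 tested ribosomal protein genes (Rpl and Rps) 47 were higher in WT with DA and 1 lower, with a median of 0.31 log2, and their share of the summed FPKM was 9.71 to 9.94% in WT and 8.16 to 8.51% in DRD5-/- libraries. That count rests on scaling, since 38 were higher under median-of-ratios scaling and 19 under quantile normalization. These genes have many pseudogenes, so the assignment of their reads is uncertain. Proteasome genes (Psm) had 35 of 48 higher and 2 lower, with a median of 0.41 log2, and translation initiation factors (Eif) 34 of 53 higher and 1 lower, with a median of 0.39. The subunits and assembly factors of mitochondrial complex I (Nduf) had 22 of 48 higher (45.8%) and 1 lower (2.08%). Together 47.9% were called, close to the 49.7% of all tested genes. Under median-of-ratios and quantile scaling the higher genes numbered 30 and 28 for Psm, 32 and 27 for Eif, and 19 and 16 for Nduf. Zinc finger genes (Zfp) had 20 of 293 higher (13 under median-of-ratios scaling, 11 under quantile normalization) and 57 lower, with a median of −0.12 log2. Their 19.5% lower was close to the 20.4% of all tested genes, while the 6.83% higher stood beside 29.2%. Receptors of the Gpr and Adgr series had 5 of 27 higher and 13 lower, and the proton pump genes Atp6v, whose product acidifies lysosomes, 0 of 16 higher and 6 lower. Integrins (Itg) had 9 of 15 higher and 2 lower.

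Nnt, which encodes a mitochondrial transhydrogenase and lies on the same chromosome as Tmem267, was picked after its values were seen. It was at 5.13 FPKM in WT and 14.9 FPKM in DRD5-/- cells with DA, and at 6.38 and 14.7 FPKM without. Its log2 differences were −1.38 and −1.09, both called. Nnt carries a deletion in the C57BL/6J substrain; the labels give C57BL/6 with no substrain, and whether substrain differs between the groups was not tested.

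Within 10 Mb of Drd5, 4 genes were called without DA: Nsg1 was higher in WT, at 3.63 against 2.3 FPKM, and Adra2c, an adrenoceptor gene, was lower, at 0.673 against 1.41 FPKM (−0.53 log2). With DA, Nsg1 was called in the other direction, at 2.25 against 3.13 FPKM (−0.35 log2). Adra2c was then at 0.89, 0.62 and 0.58 FPKM in WT and 1.34, 1.04 and 1.33 FPKM in DRD5-/- libraries, a log2 difference of −0.40 that was not called. The other 2 are the gene models Gm1673 and Gm46911, with uncertain mapping.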
